A study of Mus musculus with 69 samples.

Results

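Activator protein 1 (AP-1) and its companion immediate early genes were followed through all libraries of a mouse kidney study of newly made RNA. They are Fos, Fosb, Fosl1, Fosl2, Jun, Junb, Jund, Egr1, Atf3 and Ier3, taken from the count matrix by symbol, 10 of the 24411 genes in it. All 10 had enough counts to be tested. In male mice deprived of water and food for 72 h, all 10 were higher than in controls in RNA drawn from Hoxb7 cells, against 9.61% of all genes tested, and 7 of 10 in RNA drawn from Atp6b1v1 cells, against 3.45%. In females 8 of 10 were higher in Atp6b1v1 cells, against 6.30%, and none of the 10 was called in Hoxb7 cells, against 0.0992% called in either direction. In males 24 h after ischemia none of the 10 was called, against 2.30% of all genes in Hoxb7 and 2.82% in Atp6b1v1 cells. Shares this low give few or no calls among 10 genes.

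Immediate early genes are transcribed within minutes of a stimulus without need for new protein, because the factors that switch them on already sit in the resting cell and are activated by kinases. AP-1 is a dimer of basic leucine zipper (bZIP) proteins: Fos proteins need a Jun protein as partner, while Jun proteins can also pair with each other, and Atf3 joins the same network. In the kidney these genes are known as early responders to ischemia, toxins, hormones and osmotic stress, and their mRNAs are short-lived, so that RNA labeled over a few hours is close to current transcription.

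Mice carried Uprt, the uracil phosphoribosyltransferase of Toxoplasma gondii, at the Rosa26 locus behind a stop cassette that Cre removes. Their genotypes were Hoxb7Cre;UPRTf/+ or Atp6b1v1Cre;UPRTf/+, in the spelling of the labels. Hoxb7Cre acts in the collecting duct, and the other driver acts in intercalated cells and in cells that share features of intercalated and principal cells. Every mouse, controls included, received 4-thiouracil (4-TU) at 430 mg/kg 4 h before the kidney was taken, and Uprt builds this base into new RNA. Thiol-tagged RNA was then biotinylated and drawn down (pulldown), and libraries of total kidney RNA were made from controls only. The treatments were ischemia (iAKI), with both renal pedicles clamped for 10 min and 4-TU given 24 h later, and volume depletion (vAKI), with water and food withheld for 72 h before labeling. The pulldown libraries of mice aged 5.5 months numbered 4 control, 4 iAKI and 3 vAKI for Hoxb7 males, 4, 3 and 4 for Atp6b1v1 males, 4, 3 and 4 for Hoxb7 females, and 4, 3 and 3 for Atp6b1v1 females. A further 5 control pulldowns came from mice aged 3 months, namely 2 from Hoxb7 females and 3 from Atp6b1v1 males. Total RNA gave 21 control libraries, 16 of them from the older mice. The labels do not say which libraries share an animal. Control pulldowns and totals were equal in number for each genotype, sex, age and series. The study's supplement gives 21 mice for its comparison of pulldown with total RNA, so each total may share a mouse with a pulldown. The main fits did not pair them, and their p-values measure the spread between these libraries.

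The 69 libraries held 12618062 to 30305464 counts (median 20868430), and sex-linked genes matched the sex given in the labels in 69 of 69. Library numbers fall into 3 runs, called series A, B and C here, which are label numbers and not known preparation dates. The male iAKI and vAKI pulldowns of Hoxb7 were all of series A, whereas their controls were split evenly between A and B. Summed CPM (counts scaled to library size by TMM) of 4 principal cell markers ranged from 2380 to 3020 in male Hoxb7 control pulldowns against 544 to 787 in total RNA of males of the same age, and that of 5 intercalated cell markers from 661 to 919 in male Atp6b1v1 control pulldowns against 309 to 356. In females of 5.5 months the principal cell sums overlapped, at 940 to 2110 CPM in Hoxb7 control pulldowns against 677 to 977 CPM in total RNA. Their intercalated cell sums did not, at 800 to 1210 CPM in Atp6b1v1 control pulldowns against 374 to 508 CPM. Proximal tubule markers were lower in the pulldowns but present, with 1450 to 2730 CPM in male Hoxb7 controls against 9680 to 12900 CPM in total RNA. In bulk RNA, fewer cells of a type and less RNA per cell cannot be told apart.

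The promoters of the 4 members with the largest fold changes in Hoxb7 cells of volume depleted males are printed to show what sequence stands before genes that moved together. RefSeq (GRCm38.p6) gave a window for 8 members and none for Fosl1 and Egr1. Each run is the 250 bases before the RefSeq start, 5′ to 3′ on the gene's strand. Capitals mark motifs, with TATAAA in Fos and TGACATCA in Jun, and the Atf3 window belongs to a start inside the span of the gene.
Fos (chr12:85473640-85473889, plus strand): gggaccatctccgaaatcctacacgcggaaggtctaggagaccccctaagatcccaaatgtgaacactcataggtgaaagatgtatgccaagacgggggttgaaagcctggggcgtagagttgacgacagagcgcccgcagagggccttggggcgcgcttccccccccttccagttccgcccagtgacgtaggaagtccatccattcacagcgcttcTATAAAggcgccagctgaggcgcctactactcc
Jun (chr4:95052223-95052472, minus strand): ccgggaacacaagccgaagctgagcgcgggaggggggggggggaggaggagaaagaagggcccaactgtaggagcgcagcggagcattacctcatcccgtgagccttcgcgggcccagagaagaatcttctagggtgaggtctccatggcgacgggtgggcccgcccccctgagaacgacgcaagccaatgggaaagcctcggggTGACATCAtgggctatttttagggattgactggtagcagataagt
Junb (chr8:84978749-84978998, minus strand): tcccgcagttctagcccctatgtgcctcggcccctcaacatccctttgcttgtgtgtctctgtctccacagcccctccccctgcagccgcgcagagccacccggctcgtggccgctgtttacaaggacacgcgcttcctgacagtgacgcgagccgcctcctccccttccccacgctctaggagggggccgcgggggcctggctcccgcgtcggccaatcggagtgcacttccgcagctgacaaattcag
Atf3 (chr1:191183334-191183583, minus strand): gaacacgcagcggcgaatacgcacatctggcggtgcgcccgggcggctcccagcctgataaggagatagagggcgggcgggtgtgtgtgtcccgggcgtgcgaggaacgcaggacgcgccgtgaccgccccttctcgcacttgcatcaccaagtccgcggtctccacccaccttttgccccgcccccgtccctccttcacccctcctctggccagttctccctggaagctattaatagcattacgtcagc
In Fos the TATAAA letters lay 33 to 28 bases before the start, and 12.4% of the 32851 promoters in the table held them in a window of this length on either strand. In Jun, TGACATCA, the variant of the cAMP response element to which Jun and Atf proteins bind in this promoter, lay 45 to 38 bases before the start, against 2.93% of promoters. The AP-1 site TGANTCA (6.75% of promoters), the element TGACGTCA (1.55%) and the CArG box of serum response factor (1.47%) were found in none of the 8 windows. The Egr letters GCGNGGGCG (4.7% of promoters) were found in Fosb, 50 to 42 bases before its start, and in Fosl2, 79 to 71 bases before. These are matches of letters in short windows, searched on both strands, and say nothing about binding. Like that of Atf3, the Fosl2 window lay inside the span of the gene in GENCODE M21. The Jund window, chr8:70697489-70697738, ended well before the GENCODE start at 70698949. For these genes, matches and absences hold for the RefSeq windows only.

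All positions below are from GENCODE M21 on GRCm38, and level per length is CPM divided by exonic kb, the mean over male control pulldowns. Jund (chr8:70698949-70700616, plus strand), the Jun protein that most cells keep at rest, had the highest level per length, with 85.9 CPM per kb in Hoxb7 and 99.1 in Atp6b1v1 controls. Egr1 (chr18:34859823-34864984, plus strand), a zinc finger activator outside AP-1, followed in Hoxb7 controls with 34.3 CPM per kb but had 14.7 in Atp6b1v1 controls. Ier3 (chr17:35821684-35822923, plus strand), a small stress protein that modulates cell survival, had 24.9 and 40.6 CPM per kb. Fosl2 (chr5:32135801-32157842, plus strand) and Jun (chr4:95049034-95052222, minus strand) had 16.6 and 14.9 CPM per kb in Hoxb7 controls, and Atf3 (chr1:191170296-191218039, minus strand) and Junb (chr8:84974484-84978718, minus strand) had 9.8 and 9.12. Fos (chr12:85473890-85477273, plus strand) was lower with 3.83, Fosb (chr7:19302696-19310051, minus strand) had 0.927 and Fosl1 (chr19:5447547-5455946, plus strand) only 0.0574. In male controls, therefore, RNA of Fos and Fosb, whose proteins bring a strong activation domain, was near the bottom of the order. That of Jund was at its top. The ranges of the 4 male Hoxb7 control libraries overlapped between every pair of neighbors in this order. Females were not ranked, and the order need not hold there. Mean Fos was 85.6 CPM in female Hoxb7 controls of 5.5 months against 8.99 CPM in the males. The library kit did not mark strand, so reads of Jun and its antisense gene Junos, of Jund and Gm11175, and of Junb and Prdx2, Fosl1 and Ccdc85b, or Atf3 and Gm24748 where they overlap, cannot be told apart.

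**Figure D1:**
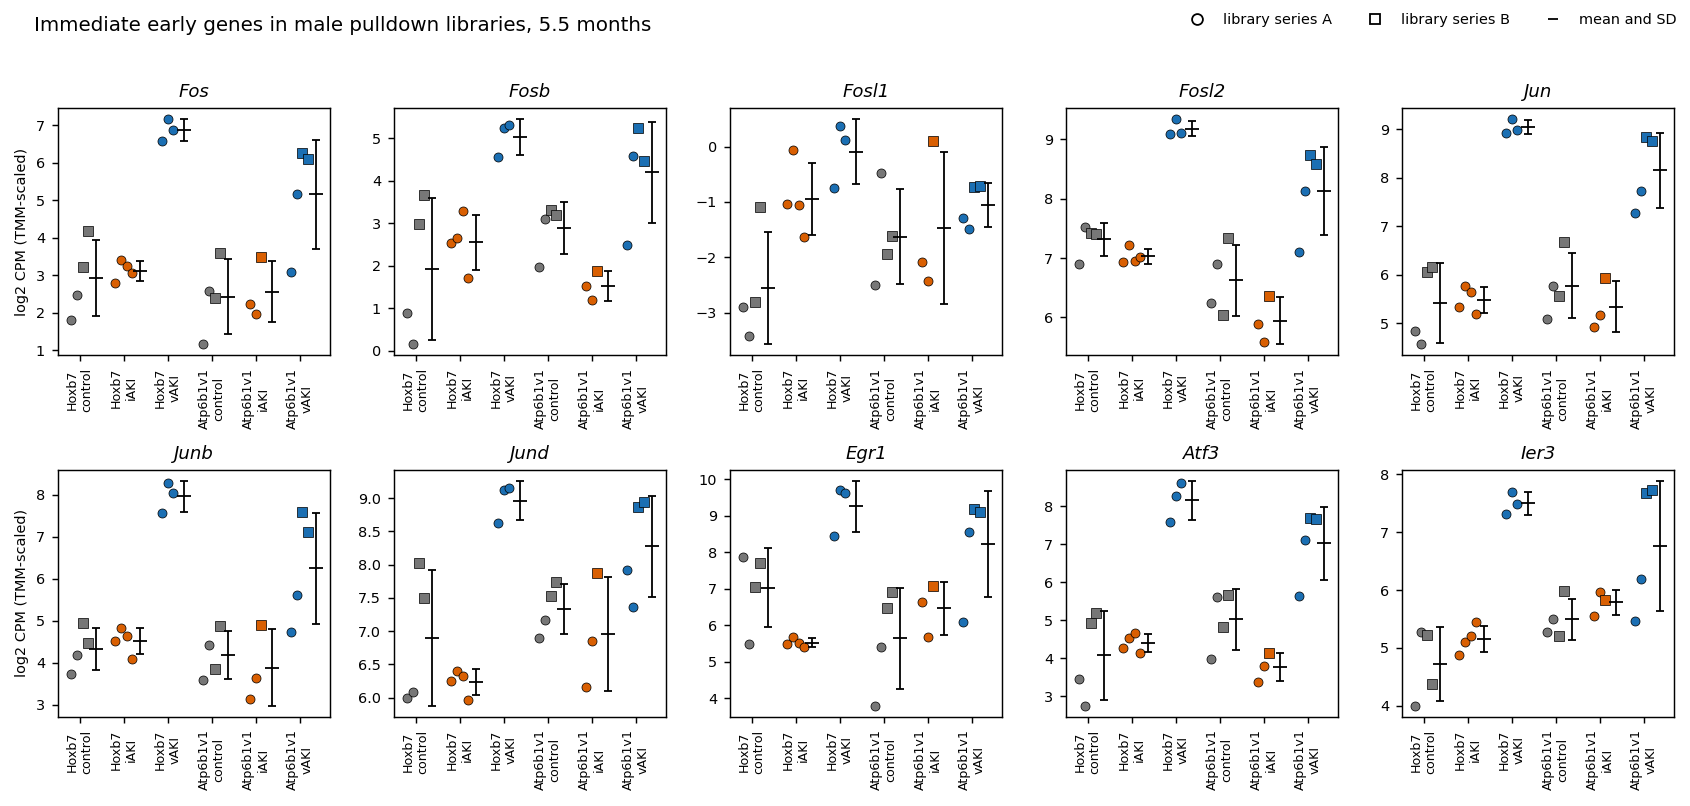
Level of the 10 immediate early genes in the 22 male pulldown libraries of 5.5 months, 1 panel per gene; the vertical axis is log2 CPM after TMM scaling and the horizontal axis the driver and treatment. Each symbol is a library (gray control, orange iAKI, blue vAKI, circle series A, square series B), the dash with its bar is the mean and SD, and the 3 Hoxb7 vAKI libraries lie above the 4 Hoxb7 controls in every panel.

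The first comparison asked how Hoxb7 cells of males answered volume depletion, and all 10 genes were higher, against 9.61% of the 21175 genes tested that were called higher (16.4% in either direction). A call needs an edgeR adjusted p under 0.05 (quasi-likelihood test, Benjamini-Hochberg adjusted over those genes) together with a change of 1 or more on the log2 scale. In each of the 10, every vAKI library was above every control library, against 19.7% of all genes. The median log2 fold change of the 10 was 2.80, against 0 for all genes.

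Among the Fos proteins, Fos had 3.41, 5.47, 9.23 and 17.9 CPM in the 4 Hoxb7 controls and 94.8, 142 and 117 CPM in the 3 vAKI libraries. Its log2 fold change was 3.71 ± 0.59 (SE, edgeR adjusted p = 4.65e-05). The lowest vAKI library was thus several times above the highest control. Fosb, which like Fos carries a strong activation domain, had 1.77, 1.02, 7.85 and 12.5 CPM in controls and 23.4, 37.7 and 39.4 CPM after vAKI. The difference on the log2 scale was 2.53 ± 0.59 (edgeR adjusted p = 0.0018). For both genes the 2 controls of series A were lower than the 2 of series B. Fosl2, or Fra-2, which lacks the strong activation domain, had 119, 185, 171 and 168 CPM in controls and 547, 646 and 553 CPM after vAKI, a log2 fold change of 1.86 ± 0.30 (edgeR adjusted p = 5.02e-05). Fosl1, or Fra-1, was scarce throughout, with 1, 0, 1 and 8 counts in controls and 10, 33 and 24 counts after vAKI. Its log2 fold change of 2.90 ± 0.81 (edgeR adjusted p = 0.00709) rests on those few counts.

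The Jun proteins rose together but by different amounts. Jun had 28.5, 23.6, 66.8 and 71.8 CPM in controls and 487, 589 and 507 CPM after vAKI. This was a log2 fold change of 3.47 ± 0.42 (edgeR adjusted p = 1.99e-06), the smallest adjusted p of the 10. Junb, which restrains Jun activity in some settings, had 13.1, 18.2, 30.6 and 22 CPM in controls and 189, 312 and 265 CPM after vAKI, a log2 fold change of 3.61 ± 0.51 (edgeR adjusted p = 1.09e-05). Jund had 63.4, 67.5, 261 and 181 CPM in controls and 394, 557 and 566 CPM after vAKI. Its log2 fold change of 1.82 ± 0.43 (edgeR adjusted p = 0.00203) was the smallest of the 10, but close to the 1.86 ± 0.30 of Fosl2.

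Atf3, a bZIP factor of the stress response, had 10.9, 6.64, 30.6 and 36.3 CPM in controls and 192, 308 and 387 CPM after vAKI. At 3.81 ± 0.51, its log2 fold change (edgeR adjusted p = 5.48e-06) was the largest of the 10. Ier3 had 15.9, 38.6, 37.5 and 20.7 CPM in controls and 159, 208 and 179 CPM after vAKI, with a log2 fold change of 2.70 ± 0.39 (edgeR adjusted p = 1.31e-05). Egr1 varied widely in controls, with 232, 44.7, 132 and 207 CPM, and had 348, 829 and 791 CPM after vAKI. Its log2 fold change was 2.09 ± 0.61 (edgeR adjusted p = 0.0094), and the gap between the highest control and the lowest vAKI library was narrower than for Fos, Jun, Junb or Atf3. With the libraries of series A alone, and with any 1 of the 22 libraries left out, the count stayed at 10.

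Ischemia in the same cells was read from 4-TU given 24 h after a clamp of 10 min, so earlier transcription was not covered. None of the 10 was called by edgeR against controls, where 2.30% of all genes were called. At an unadjusted p under 0.05 there were 3, and DESeq2 called 1. Fos had 6.78, 10.5, 9.35 and 8.22 CPM in the 4 iAKI libraries, inside the range of the controls, and its log2 fold change was -0.04 ± 0.54. Jun, with 40.2, 54, 50 and 36.2 CPM, and Atf3, with 19.1, 23, 25.1 and 17.4 CPM, were also inside that range. Egr1 came closest to a change, with 44.5, 51.2, 46 and 42.5 CPM and a log2 fold change of -1.73 ± 0.58 (edgeR adjusted p = 0.0773). The 4 Egr1 values lay within a few CPM of each other and of the lowest control, while the other 3 controls were higher. Fosl1 had a log2 fold change of 1.96 ± 0.82 (edgeR adjusted p = 0.166) on 8, 20, 8 and 6 counts. For the others the log2 fold change ran from -0.91 for Jund to 0.37 for Ier3. The markers of injured tubule Havcr1, Krt20 and Lcn2 were called higher in these iAKI libraries, 3 of 3, against 1.52% of all genes. Their sum was 74.7 to 414 CPM, against 10.4 to 17.2 CPM in controls. In vAKI libraries it was 16.9 to 22.3 CPM, with none called. With series as a covariate Fosl1 was called higher, at 2.67 (edgeR adjusted p = 0.0301), and within series A Fosb, at 2.12 (0.0228), and Fosl1, at 4.09 (0.0247). The member that DESeq2 called was Egr1, lower by a log2 fold change of -1.74.

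Both stimuli were compared directly, which avoids the controls that these contrasts share. Labeling came 24 h after ischemia but at the end of the deprivation, so stimulus and timing cannot be told apart here. Between vAKI and iAKI in Hoxb7 males, 9 of 10 were higher after volume depletion, against 8.15% of all genes. The log2 differences were 3.82 ± 0.64 for Egr1 (edgeR adjusted p = 9.23e-05), 3.80 ± 0.51 for Atf3 (7.06e-06) and 3.75 ± 0.60 for Fos (4.94e-05). Fosl1 was the exception, at 0.94 ± 0.68 (edgeR adjusted p = 0.32). The count was 9 without any 1 library.

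**Figure D2:**
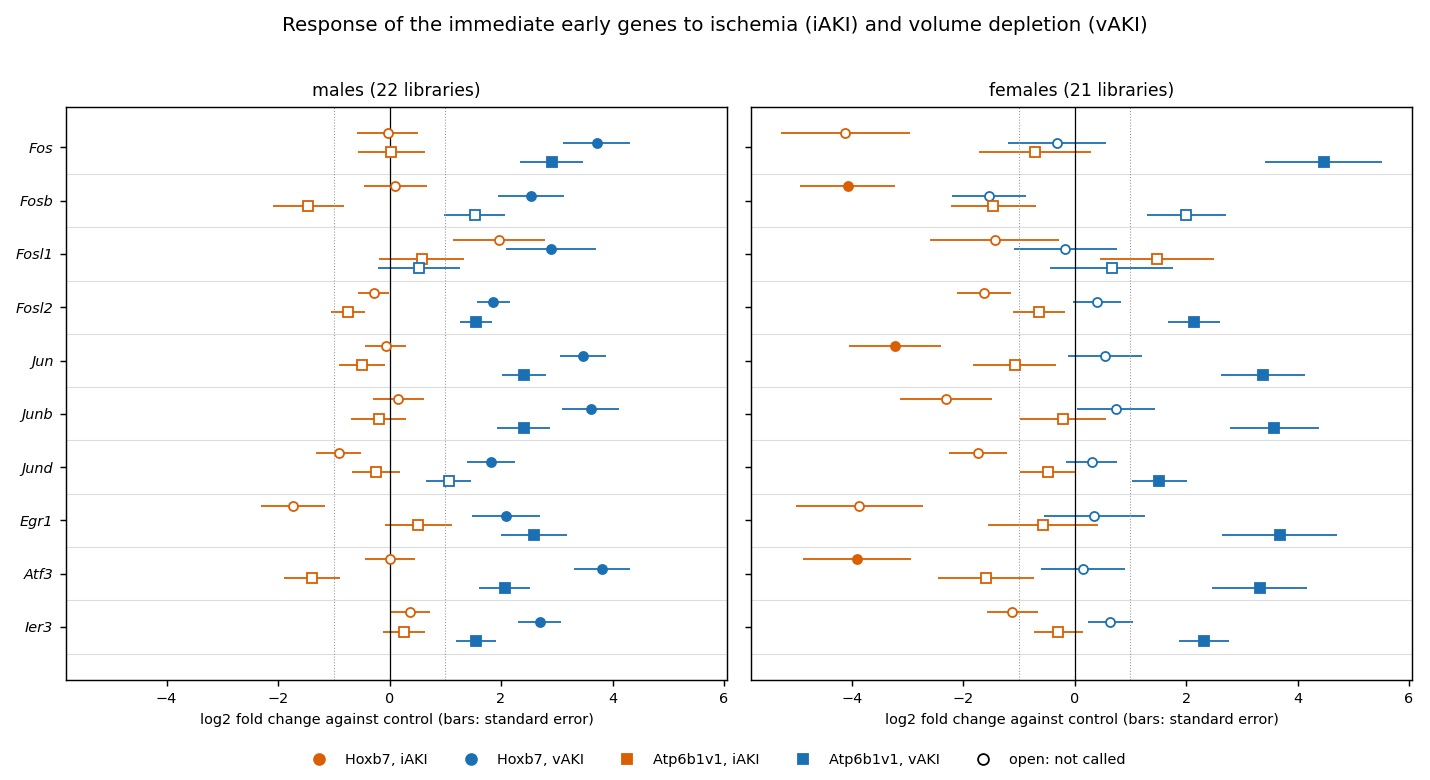
Log2 fold change against control of the 10 genes after ischemia (orange) and volume depletion (blue) in Hoxb7 (circles) and Atp6b1v1 (squares) pulldowns, males left and females right; bars are standard errors, dotted lines mark a log2 fold change of 1 in size, and open symbols were not called. In males the filled blue symbols number 10 for Hoxb7 and 7 for Atp6b1v1, and no orange symbol is filled.

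In Atp6b1v1 cells of males, volume depletion was followed by higher levels of Fos, Fosl2, Jun, Junb, Egr1, Atf3 and Ier3, 7 of 10 members against 3.45% of all genes called higher. Only Jun had every vAKI library above every control, against 7.05% of all genes. Jun had 34, 54.5 and 47.1 CPM in control replicates 6, 9 and 10 and more in replicate 11 (mean 59.5 ± 29.7, SD, n = 4), and 155, 211, 460 and 429 CPM after vAKI. Its log2 fold change was 2.41 ± 0.39 (edgeR adjusted p = 0.000414). The vAKI libraries split by series, the 2 of series A being lower than the 2 of series B.

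Fos showed the same split, with 8.45 and 35.8 CPM in the vAKI libraries of series A and 76.6 and 68.7 CPM in those of series B, against 2.14, 5.91, 5.13 and 11.9 CPM in controls. A log2 fold change of 2.91 ± 0.56 was fitted (edgeR adjusted p = 0.00173), and the library of 8.45 CPM, replicate 1, lay within the controls. Egr1 had 68, 376, 584 and 547 CPM after vAKI and 13.8, 42, 87.9 and 120 CPM in controls, a log2 fold change of 2.59 ± 0.59 (edgeR adjusted p = 0.0057). Junb, with 26.3, 48.8, 192 and 138 CPM against 11.9, 21.4, 14.3 and 29.3 CPM, changed by 2.40 ± 0.47 (edgeR adjusted p = 0.00186). In each of these genes replicate 1 was the lowest vAKI library and lay inside the control range.

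Atf3 had 49.4, 138, 205 and 204 CPM after vAKI and 15.7, 49.1, 28.2 and 50.2 CPM in controls, a log2 fold change of 2.07 ± 0.46 (edgeR adjusted p = 0.00425). Fosl2 changed by 1.55 ± 0.28 (0.00114) and Ier3 by 1.55 ± 0.36 (0.00595), both edgeR adjusted p. Fosb had a log2 fold change of 1.53 ± 0.55 (edgeR adjusted p = 0.0636) and Jund one of 1.06 ± 0.40 (edgeR adjusted p = 0.0807), so that neither passed, and Fosl1 had 0.52 ± 0.73. Markers moved in these libraries too. The 5 intercalated cell markers summed to 410 to 582 CPM after vAKI and 661 to 919 CPM in controls, without overlap. Of these, 2 of 5 were called lower, against 1.70% of all genes. Slc12a3 had at most 162 CPM after vAKI against 286 to 602 CPM in controls and was called lower, and their part in the members' values was not tested. Without vAKI replicate 1 the count of members was 9 of 10. It was 6 within series A and 9 within series B, and no removal of 1 library lowered it below 7. All genes called in either direction rose from 1091 to 1642 without vAKI replicate 1.

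After ischemia none of the 10 was called by edgeR in Atp6b1v1 males, against 2.82% of all genes, DESeq2 also called none, and 3 had an unadjusted p under 0.05. Fosb was below all controls in the 3 iAKI libraries, with 2.76, 2.17 and 3.57 CPM against 3.81, 8.47, 9.79 and 9.04 CPM. This 1 member stands against 9.54% of all genes that lay below every control, and its log2 fold change was -1.46 ± 0.64 (edgeR adjusted p = 0.158). Atf3 had a log2 fold change of -1.38 ± 0.50 (edgeR adjusted p = 0.0877), and those of the others ran from -0.75 for Fosl2 to 0.58 for Fosl1. Again injured tubule markers were called higher in iAKI libraries, 3 of 3, against 1.14% of all genes, and not in vAKI libraries. The direct contrast of vAKI with iAKI called 9 of 10 higher, against 7.16% of all genes, and Fosl1 was once more the exception at -0.05 ± 0.75. That count was 6 without iAKI replicate 1. With that library left out, all genes called in either direction fell from 2446 to 1751.

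Whether the drivers differed in their response was tested as a contrast of log2 fold changes. By edgeR, none of the 10 differed for volume depletion, against 2.93% of all genes, and none for ischemia, against 3.49%. DESeq2 called none for either stimulus, and an unadjusted p under 0.05 was found for 3 and 2 members. The volume depletion difference, Atp6b1v1 minus Hoxb7, was -1.74 ± 0.65 for Atf3 (edgeR adjusted p = 0.135) and 0.49 ± 0.83 for Egr1. This count depended on series. With series as a covariate, 7 members had a smaller rise in Atp6b1v1 than in Hoxb7 cells after volume depletion, among them Jun at -1.86 (edgeR adjusted p = 0.000388), Junb at -2.15 (0.0043) and Atf3 at -2.59 (0.00302), and 3 differed after ischemia. Within series A, where the Atp6b1v1 vAKI libraries are replicates 1 and 2, the counts were 8 and 5. The share of all genes called in those fits is not given here, so whether the members stand out from it cannot be told. As Hoxb7 vAKI libraries exist in series A alone, the contrast has no value within series B.

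Other genes known as immediate early genes moved with the members. Of 48 such genes, 46 were higher in Hoxb7 males after volume depletion, against 9.61% of all genes, and none was lower. The list's median log2 fold change was 2.74, with the kinase Plk3 at 4.74 and Socs3, an inhibitor of cytokine signaling, at 4.21. Egr4, an Egr family factor, had the largest fitted change but was at 0 in all 4 controls, so no fold is given. In Atp6b1v1 males 37 of 48 were higher, against 3.45% of all genes, with Gadd45g at 3.26, Nfil3 at 2.91 and Csrnp1 at 2.88. After ischemia 3 were higher in Hoxb7 males, against 1.52% of all genes, namely Socs3 at 2.20, Egr2 at 1.75 and Cyr61 at 1.44, and this count was 0 without iAKI Hoxb7 replicate 5 or control Hoxb7 replicate 2 or 3. All genes called in either direction fell from 488 to 302 without iAKI Hoxb7 replicate 5. In Atp6b1v1 males 4 were lower after ischemia, against 1.68% of all genes, among them Plk3 at -2.14, Errfi1 at -1.26 and Sik1 at -1.24, with none higher. That count was 0 without iAKI Atp6b1v1 replicate 1 or 4, and 6 was its highest value. All genes called in either direction fell from 598 to 233 without iAKI Atp6b1v1 replicate 1. These lists were compiled with earlier results of the data known, so their counts describe and do not test.

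Of 21 bZIP genes whose products can pair with Fos or Jun proteins or share their sites, 10 were higher in Hoxb7 males after volume depletion, against 9.61% of all genes, and none was lower. Maff, a small Maf protein also counted among the 48, changed by 3.04, Creb5 by 2.72 and Ddit3, a stress factor of the Cebp family, by 2.69. In Atp6b1v1 males 5 were higher, against 3.45% of all genes, among them Maff at 1.62 and Ddit3 at 1.39. This count was 3 without control Atp6b1v1 replicate 6 or vAKI Atp6b1v1 replicate 6, and after ischemia only Creb5 in Hoxb7 males was called, at 2.05. Of 22 kinases and serum response factor cofactors that act upstream, 2 were higher in Hoxb7 males after volume depletion, Map2k3 at 1.37 and Map2k6 at 1.17, a share near the 9.61% of all genes, and the list's median log2 fold change was 0.14. None of the 22 was called in Atp6b1v1 males. The median of the 22 thus lay near that of all genes, 0, and that of the 10 members did not.

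Of 25 genes reported elsewhere as AP-1 targets, 10 were higher and 2 lower in Hoxb7 males after volume depletion, against 9.61% and 6.81% of all genes. The higher ones included the growth factor precursors Hbegf at 3.22 and Areg at 2.95, both chosen after their values were seen. Il6 and Mmp3 had larger fitted changes but were almost absent from the controls. Fosl1 is both a member and among these targets. The lower ones were the protease Plau at -1.70 and Ccnd1, cyclin D1, at -1.33. In Atp6b1v1 males 4 were higher and 3 lower, against 3.45% and 1.70% of all genes, with Areg at 2.90 and Hbegf at 2.00 among the higher and Ccnd1 at -1.31 among the lower. Ischemia called 7 of the 25 higher in Hoxb7 males and 5 in Atp6b1v1 males with none lower, although no member was called, and Timp1, an inhibitor of metalloproteases, had log2 fold changes of 3.35 and 2.93 there. Of all genes 1.52% and 1.14% were called higher in these comparisons. The count of 7 was 2 without iAKI Hoxb7 replicate 5, and that of 5 was 2 without control Atp6b1v1 replicate 6. All genes called in Hoxb7 males, in either direction, fell from 488 to 302 without iAKI Hoxb7 replicate 5.

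Markers of cell types moved in the same libraries. In Hoxb7 males after volume depletion, 3 of 4 principal cell markers, 4 of 5 intercalated cell markers and both markers of brown fat, Ucp1 and Cidea, were lower. Of all genes 6.81% were called lower in this comparison. The summed principal markers were 950 to 1060 CPM against 2380 to 3020 CPM in controls, but ischemia, where no member was called, gave similar sums of 769 to 994 CPM. Brown fat markers summed to 2.82 to 13.7 CPM against 16.9 to 61.7 CPM in controls, and to 0.89 to 6.58 CPM after ischemia. Of 5 macrophage markers Cd68 and C1qb were called higher and Adgre1 lower, and they summed to 45 to 55.4 CPM after volume depletion and 47.1 to 52.2 CPM in controls. Other markers were lower after volume depletion and not after ischemia in summed level. Thick ascending limb markers summed to 762 to 850 CPM after vAKI, against 1330 to 2320 CPM in controls and 1770 to 2010 CPM after iAKI, and both were called lower after vAKI. Slc12a3, the marker of the distal convoluted tubule, had 127 to 171 CPM after vAKI, against 214 to 423 CPM in controls and 419 to 545 CPM after iAKI, and was called lower after vAKI. Fibroblast markers summed to at least 73.4 CPM after vAKI and 71.8 to 177 CPM after iAKI, against 27.6 to 58.8 CPM in controls, and 1 of 3, Pdgfra, was called higher after vAKI. The part of these shifts in the members' values was not tested.

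Over the 22 male libraries, genes were also ranked by Pearson correlation of their log2 CPM with that of each member, among 14046 genes of at least 1 CPM on average. The libraries share treatment and series, so these values describe likeness only. Jun was most like Gadd45g (r = 0.989) and Zfp36 (0.984), and Junb most like Midn (0.985) and Cdc42ep4 (0.983). Atf3 was most like Ifrd1 (0.978) and Per1 (0.976), Fos like Trib1 and Csrnp1 (both 0.968), and Fosl2 like Dnmbp (0.968) and Nr4a2 (0.967). Jund came closest to Exosc4 (0.963) and Ddx28 (0.959), Ier3 to Ppp2r3d (0.943) and Snora70 (0.94), and Egr1 to Pald1 (0.911) and Lrrc73 (0.884). Fosb was most like another member, Atf3 (0.948), and then Ifrd1 (0.931). Among the members themselves, with Fosl1 left out for its low counts, the 36 pairs had a median r of 0.851 over the same libraries, from 0.677 for Egr1 and Ier3 to 0.973 for Jun and Atf3. In 21 libraries of total kidney RNA from controls the median was 0.506 and the lowest value -0.459, for Fosl2 and Jund.

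**Figure D3:**
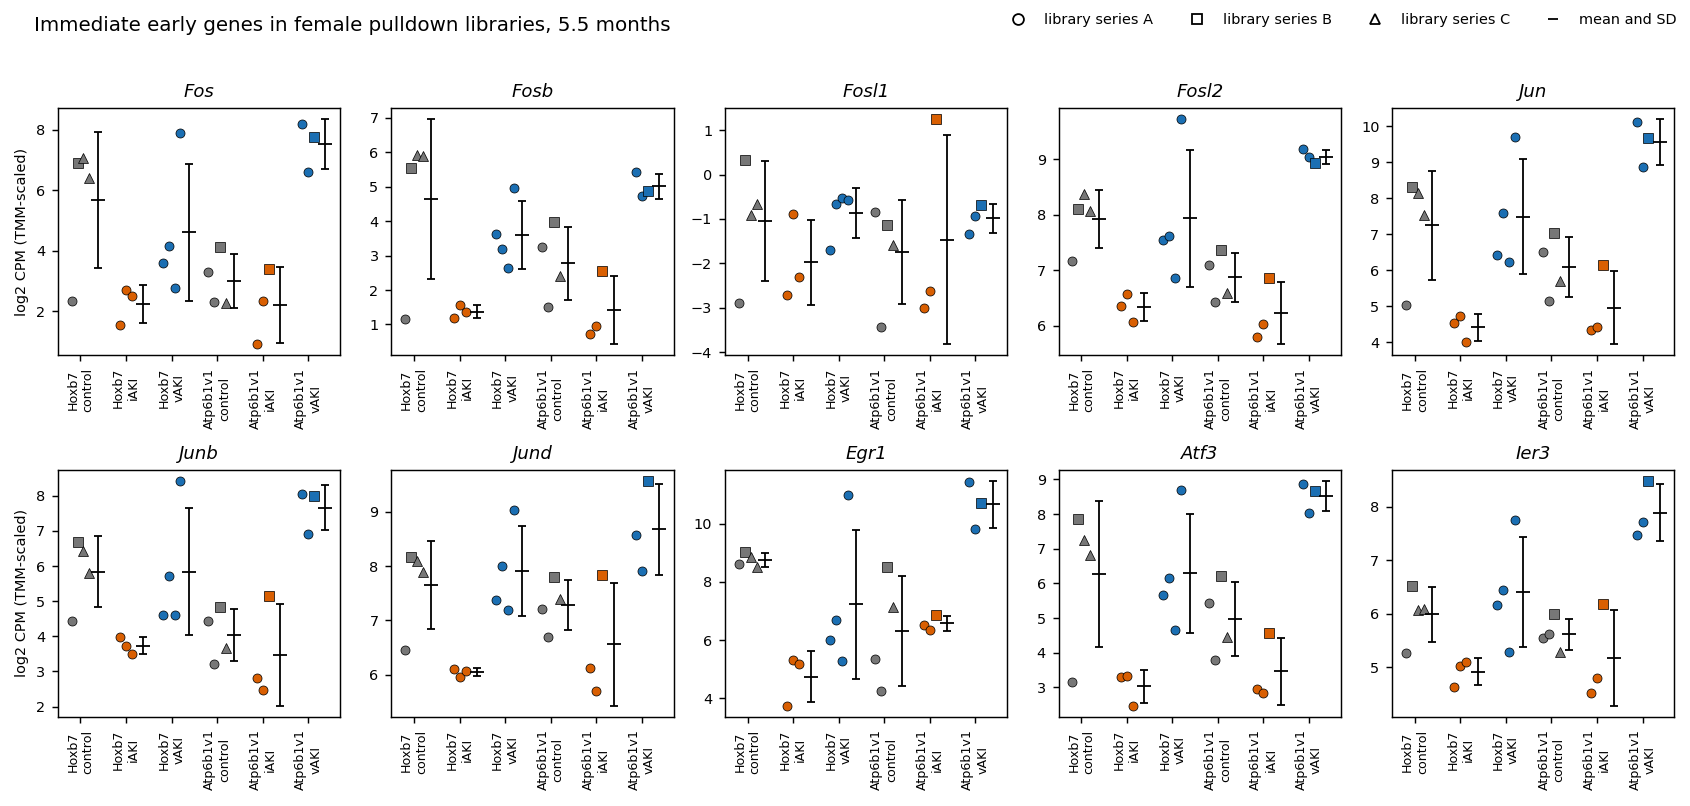
Level of the 10 immediate early genes in the 21 female pulldown libraries of 5.5 months; axes, colors and error bars are as in the male plot, with triangles for series C. Hoxb7 control replicate 1, the circle, lies below the 3 other Hoxb7 controls in every panel but that of Egr1, and Hoxb7 vAKI replicate 5 lies above the other 3 vAKI libraries in every panel but that of Fosl1.

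Female libraries were fitted separately, and some stood apart from their group. Fos had 4.93 CPM in Hoxb7 control replicate 1, of series A, and 120, 133 and 84.5 CPM in replicates 6, 9 and 10, of series B and C. Total RNA of female Hoxb7 controls showed the same order, with 2.55 CPM in series A and 40.3, 61 and 44 CPM in series B and C. Among the 4 Hoxb7 vAKI libraries Fos was at 11.9, 17.9, 6.79 and 239 CPM, the last being replicate 5. Outside the lists named here, over the 3383 genes called in male Hoxb7 cells after volume depletion, the same library lay 0.437 of the way along the male change, counted from the mean of the female controls, whereas the other 3 vAKI libraries lay between -0.184 and 0.084. Each control was counted from the mean of the other controls instead, so its value is not on quite the same footing. The controls of series B and C lay between 0.0114 and 0.19 and replicate 1 at -0.321.

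In Hoxb7 females volume depletion called none of the 10 by edgeR against controls, where 0.0992% of all genes were called, and Fosb alone had an unadjusted p under 0.05. The log2 fold changes were -0.31 ± 0.88 for Fos, 0.54 ± 0.67 for Jun and 0.15 ± 0.75 for Atf3. Ischemia called Fosb (-4.07 ± 0.85), Jun (-3.22 ± 0.82) and Atf3 (-3.91 ± 0.97) lower, with edgeR adjusted p of 0.0257, 0.0429 and 0.0402, against 1.29% of all genes. Fosl2, Jun, Junb, Jund, Egr1 and Ier3 lay below every control in all 3 iAKI libraries, 6 members against 12.0% of all genes. For Jun the iAKI libraries had 23.1, 26.2 and 15.8 CPM, close to the 32.4 CPM of control replicate 1 and far from the 317, 281 and 184 CPM of the other controls. For Egr1, in contrast, control replicate 1 had 393 CPM and the others 521, 461 and 369 CPM, against 13.3, 39.6 and 36.4 CPM after ischemia. Its log2 fold change was -3.86 ± 1.14 (edgeR adjusted p = 0.061).

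These female calls changed with the controls used. Without the 3 controls of series B and C, and within series A, the control arm is 1 library, replicate 1, whose spread is taken from the other groups, so that a call lost there says little. No member was called lower in either case or with series as a covariate, and Fosb had log2 fold changes of 0.24 without them and 0.22 within series A. The count was also 0 without iAKI replicate 1, 2 or 3 or control replicate 9 or 10, and 1 without control replicate 6. It was 8 without control replicate 1 or vAKI replicate 5, and 6 without vAKI replicate 1 or 3 or iAKI Atp6b1v1 replicate 6. Over all genes, calls in either direction moved too, from 440 to 7 without iAKI replicate 2 and to 1729 without control replicate 1. Between vAKI and iAKI in Hoxb7 females 7 members were higher after volume depletion, against 1.85% of all genes, with Jun at 3.76 ± 0.85 (edgeR adjusted p = 0.0232). The count was 0 without vAKI replicate 5 or without any 1 iAKI library, 3 without vAKI replicate 2 and 4 without control replicate 9 or 10 or control Atp6b1v1 replicate 7, and it was 9 within series A. All genes called in either direction fell from 553 to 10 without iAKI replicate 3 and rose to 1032 without vAKI replicate 1.

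In Atp6b1v1 females volume depletion called 8 of 10 higher, against 6.30% of all genes. Fos had 9.67, 4.82, 17.4 and 4.74 CPM in controls and 294, 96.6 and 216 CPM after vAKI, a log2 fold change of 4.47 ± 1.04 (edgeR adjusted p = 0.00787). Egr1 had 40.8, 19.1, 365 and 140 CPM in controls and 2790, 914 and 1690 CPM after vAKI, a log2 fold change of 3.68 ± 1.03 (edgeR adjusted p = 0.0194). Jun had 90.9, 35.1, 130 and 52.1 CPM in controls and 1120, 467 and 810 CPM after vAKI, a log2 fold change of 3.38 ± 0.76 (edgeR adjusted p = 0.00646).

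Junb (3.58), Atf3 (3.32), Ier3 (2.33), Fosl2 (2.13) and Jund (1.52) made up the rest of the 8 on the log2 scale. Fosb, at 2.00 ± 0.71 (edgeR adjusted p = 0.0541), did not pass, although its vAKI libraries also lay above every control. Together 9 members were above all controls in every vAKI library, against 15.0% of all genes, the exception being Fosl1. The intercalated cell markers summed to 418 to 617 CPM after vAKI and 800 to 1210 CPM in controls, without overlap. Of these, 2 of 5, Foxi1 and Atp6v0d2, were called lower, against 3.59% of all genes. Their part in the members' values was not tested. After ischemia none was called by edgeR, against 1.15% of all genes, none had an unadjusted p under 0.05, and the direct contrast of vAKI with iAKI called 9 higher, against 11.5%. The count of 8 was 8 within series A, and 6 without vAKI replicate 3. Without that replicate, all genes called in either direction fell from 2095 to 1189. Among the other immediate early genes, 35 of 48 were higher in these cells after volume depletion, against 6.30% of all genes, and 20 were without vAKI Atp6b1v1 replicate 3. In Hoxb7 females none of the 48 was called by edgeR, against 0.0992% of all genes.

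Sexes were compared in a fit of 43 libraries. In Hoxb7 cells the ischemia response was lower in females for Fos (-4.09 ± 1.25), Fosb (-4.20 ± 1.05), Jun (-3.17 ± 0.89) and Atf3 (-3.94 ± 1.05), with edgeR adjusted p of 0.0325, 0.0125, 0.0218 and 0.017, 4 members against 4.77% of all genes. The volume depletion response was lower in females for 6 members, against 5.48%, among them Fosb at -4.08 ± 0.96 (edgeR adjusted p = 0.00582). Both contrasts use the Hoxb7 controls, where 4 members were higher in females than in males, against 1.19% of all genes, with Fos at 3.26 ± 0.85 (edgeR adjusted p = 0.0263) and Fosb at 2.88 ± 0.69 (0.0135). Within series A the female Hoxb7 control arm is 1 library, replicate 1, assumed to vary like the other groups, and no member was called in any of the 3 contrasts. With series as a covariate the counts were 4, 7 and 1. Without iAKI replicate 3 the first count was 0, and without control replicate 3, 6 or 9 it was 2. The second count ran from 3, without vAKI replicate 1 or 3 or control replicate 6, to 9, without vAKI replicate 5 or control replicate 1. The third was 0 without control replicate 2, 3 or 9, 1 without replicate 6 or 10 and 2 without replicate 4, and its highest value was 6, without replicate 1. Calls over all genes, in either direction, moved as well. For ischemia they were 1479, but 141 without iAKI replicate 3 and 2639 without control replicate 1. For volume depletion they were 2294, and ran from 1220 without vAKI replicate 1 to 3922 without vAKI replicate 5. For controls they were 426, and ran from 207 without control replicate 9 to 1320 without control replicate 1. In Atp6b1v1 cells none of the 10 differed between sexes by edgeR in either response or in controls, and none had an unadjusted p under 0.05. Of all genes 0% differed in the responses there and 1.19% in controls.

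**Figure D4:**
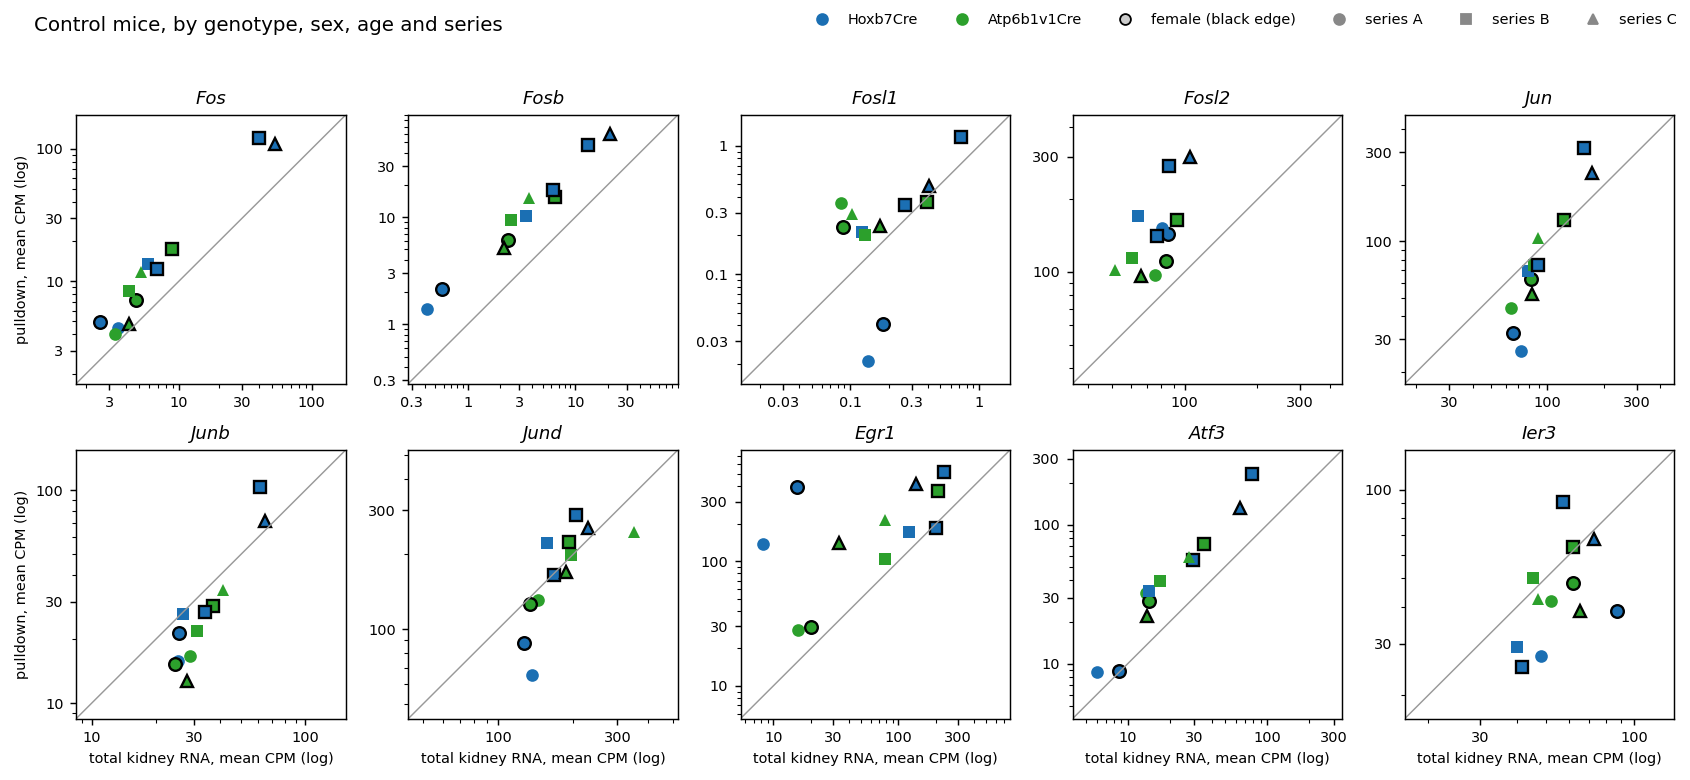
Mean CPM of the 10 genes in pulldowns (vertical, log axis) against total kidney RNA (horizontal, log axis) of control mice; each symbol is 1 of 12 combinations of genotype (blue Hoxb7Cre, green Atp6b1v1Cre), sex (black edge for females), age and series (circle A, square B, triangle C), and the line marks equal levels. Fos, Fosb, Fosl2 and Atf3 lie above the line in 12 of 12, and Junb lies below it in 10.

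Controls of both sexes and ages were used to ask which members were more abundant in tagged RNA than in total kidney RNA. In Hoxb7 pulldowns 5 of 10 were higher, against 14.6% of all genes, with log2 differences of 1.89 ± 0.47 for Fosb (edgeR adjusted p = 0.00046), 1.60 ± 0.47 for Fos (0.00289), 1.52 ± 0.48 for Egr1 (0.00506), 1.37 ± 0.14 for Fosl2 (1.35e-11) and 1.23 ± 0.42 for Atf3 (0.00883). The median of all genes was shifted by 0.107 in this contrast. In Atp6b1v1 pulldowns Fosb (1.52 ± 0.49, edgeR adjusted p = 0.00591) and Atf3 (1.12 ± 0.41, 0.0165) were higher, 2 members against 11.3% of all genes. Fosl2 had a log2 difference of 0.65 ± 0.14 there (edgeR adjusted p = 9.15e-05), below the fold set for a call. None of the Jun genes was called in either, nor was Ier3, and Jun had 0.15 ± 0.30 and -0.10 ± 0.29.

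Fosl2 ranged from 119 to 330 CPM over 10 Hoxb7 control pulldowns (median 170), from 64 to 174 CPM over 11 Atp6b1v1 control pulldowns (median 96.3) and started at 45.6 CPM over 21 total libraries (median 77.9, mean 75.1 ± 16.9, SD). Fos ranged from 3.41 to 133 CPM (median 12.5), from 2.14 to 24.5 CPM (median 5.91) and from 1.68 to 61 CPM (median 4.7). Fosl2 in Hoxb7 pulldowns thus stood above every total library, which no other member did. No member was called between Atp6b1v1 and Hoxb7 control pulldowns by edgeR or DESeq2, against 4.11% of all genes, and 1 member, Fosl2, had an unadjusted p under 0.05, with a log2 difference of -0.72 ± 0.17 (edgeR adjusted p = 0.00286).

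Since the spread among controls followed sex, age and series, pulldowns were set beside totals of the same genotype, sex, age and series, in 12 combinations. The pulldown mean was higher in 12 of 12 for Fos (median ratio 1.95), Fosb (2.89), Fosl2 (1.86) and Atf3 (2.08), and in 11 for Egr1 (2.01). It was higher in 9 for Fosl1 (1.47), 5 for Jund (0.961), 4 for Jun (0.858), 3 for Ier3 (0.791) and 2 for Junb (0.782). Fos, Fosb, Fosl2, Atf3 and Egr1 were thus above total RNA in nearly every combination, the Jun genes and Ier3 were about even or below, and Fosl1 was above in most but ranged from 0.154 to 4.23. Egr1 spread the most, from a ratio of 0.925 to one of 25.5, the highest being the female Hoxb7 control of series A at 393 CPM against 15.4 CPM in total RNA. The Hoxb7 count of 5 was 1 in males alone, 2 within series A and 3 within series C, and 4 with the combination as a covariate. The Atp6b1v1 count of 2 was 4 with the combination as a covariate, 1 in females alone and 0 at 5.5 months alone or within series C. The call for Atf3 in Atp6b1v1 pulldowns was lost without replicate 15 of the controls, a male of 3 months with 126 CPM, where the others ranged from 13.7 to 73.4 CPM. Within series A the Hoxb7 log2 difference of Jun was -1.26 (edgeR adjusted p = 6.34e-05) and that of Atf3 was -0.21, opposite in sign to the values over all controls.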

How the data were processed

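The authors deposited 1 matrix of raw counts per gene for 69 libraries. Per the labels and the methods of the study, reads were made with CASAVA 1.8.2, trimmed with Trimmomatic 0.36, aligned to mm10 with STAR 2.5.3a and counted with HTSeq 0.6.1p2; the gene annotation is not given in the sources used here. The kit (TruSeq RNA) did not mark strand. All 24411 genes were kept in library sizes, and 21175 with at least 2 counts over the 69 libraries were tested.

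Counts were fitted with edgeR 4.0.16 (TMM, quasi-likelihood test, Benjamini-Hochberg adjustment over all genes tested) in R 4.3.3 with limma 3.58.1. Calls required an adjusted p below 0.05 as well as a change of 1 or more, up or down, on the log2 scale. Males (22 libraries), females (21), both sexes (43) and controls (42, with sex as a covariate) were separate fits, and the ischemia and volume depletion contrasts of a driver share its controls. Levels are CPM with TMM scaling, and log2 CPM used a prior count of 2. DESeq2 1.42.0 was an alternative for males and controls. The steps were tested on simulated data. Depth limits precision most for Fosl1, which had under 1 CPM in most libraries.

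The members and the lists were chosen with earlier results of these data known, and the lists start from general knowledge of the pathway. All 10 members are named. Of other lists, at most the 3 highest and 3 lowest called genes of a comparison are named, besides markers that touch a result, and the genes most alike are the top 2 for each member by Pearson correlation. Other alternatives were size factors of DESeq2, other filters on low counts, no fold threshold, a replicate block, series as a covariate, other sets of mice, and each library left out. Fits within 1 series, those without the Hoxb7 controls of series B and C, the covariate of 12 combinations, and all alternatives for females and for the sexes were chosen after seeing the data. Promoters are from RefSeq (GRCm38.p6) and positions from GENCODE M21. Figures were drawn with Python 3.11 and matplotlib 3.10.9. Protein sequences were not used here, and some genes of the lists are not reported here.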

Additional observations from a re-analysis of the deposited data

Results flagged for a closer look

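Some libraries lay far from the rest of their group, by the gap to the nearest other library over the whole range (Dixon's 95% critical value). In female Hoxb7 controls, replicate 1 was such a library for Fos, with 4.93 CPM against 84.5 to 133 CPM in the others, for Fosb, with 2.14 CPM against 47 to 60.6 CPM, and for Jund, with 88 CPM against 238 to 287 CPM. Fosb had 3.81 CPM in male Atp6b1v1 control replicate 6 against 8.47 to 9.79 CPM. Fosl1 had 0.214 CPM in female Hoxb7 vAKI replicate 1 against 0.54 to 0.603 CPM, and 0 CPM in male total replicate 4 against 0.102 to 0.172 CPM. These are 6 of 90 groups, where chance gives about 5%.

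The response differed between sexes in Hoxb7 cells by the test of the difference itself. For ischemia, females minus males, the log2 difference was -4.09 for Fos, -4.20 for Fosb, -3.17 for Jun and -3.94 for Atf3. For volume depletion it was -4.04 for Fos, -4.08 for Fosb, -2.94 for Jun, -2.88 for Junb, -3.67 for Atf3 and -2.07 for Ier3. Both sets use the female Hoxb7 controls, in which Fos was at 4.93 CPM in series A and at 84.5 to 133 CPM in series B and C. Series A holds 1 female Hoxb7 control, replicate 1, so the difference between sexes has no replicated control arm within it.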

How the results depend on the processing

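Of the members called higher after volume depletion, all 10 in Hoxb7 males were called under every alternative run in males, against 7 in Atp6b1v1 males, where the count ran from 6 to 9. Over all alternatives and single members, 2633 values in males kept their side of the threshold, 58 passed it newly, 33 lost it and 6 reversed. Direction was compared only where the main fit or the alternative made a call. The 2633 thus include uncalled values that changed sign. Counts of members that moved by more than 1.5 times follow, without the share of all genes called under each alternative. In Hoxb7 males the ischemia count of 0 was 1 with DESeq2, with series as a covariate and with only the groups compared, 2 in series A, and 3 with both sexes and in females only, and the volume depletion count of 10 was 5 with both sexes and 0 in females only. The Atp6b1v1 ischemia count of 0 was 1 with series as a covariate, with 25 males and in series A, and 2 with only the groups compared and in series B. The difference between drivers went from 0 to 3 (ischemia) and 7 (volume depletion) with series as a covariate, and to 5 and 8 in series A. In females the Hoxb7 ischemia count of 3 was 0 in series A, with series as a covariate and without the Hoxb7 controls of series B and C. The first and last of these, and series A between sexes, leave 1 female Hoxb7 control, assumed to vary like the other groups. Between sexes, the counts of 4 (ischemia), 6 (volume depletion) and 4 (Hoxb7 controls) were 0 in series A, and the last was 1 with series as a covariate. In controls, the Hoxb7 against total count of 5 was 1 in males only, 2 in series A and 3 in series C. That of Atp6b1v1 against total, 2, was 3 with no fold threshold, in males only and in series A, 1 in females only, 0 at 5.5 months and in series C, and 4 with the 12 combinations. Atp6b1v1 against Hoxb7, 0, was 1 with no fold threshold, with series as a covariate and at 5.5 months, and 2 in series A. The cause was not tested.

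Only 5 of 20 same-numbered pairs in males, 5 of 14 in females and 11 of 26 in controls correlated over 0.1. Replicate numbers thus did not mark pairs. Numbers run within each group label and the totals hold both drivers, so same-numbered control libraries can differ in genotype or sex. This check therefore cannot show whether a control pulldown and a total share a mouse. With the replicate block, the Hoxb7 male ischemia count was 2, the Atp6b1v1 against total count 1 and the Atp6b1v1 against Hoxb7 count 4. In females it was 0 for Hoxb7 ischemia and for Atp6b1v1 volume depletion, and 1 for Hoxb7 volume depletion against ischemia, and all 3 counts between sexes were 0.

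Changes of sign between 2 uncalled values are not listed. Values that reversed with a call in the main fit or the alternative were Fosb and Atf3 after ischemia in Hoxb7 males. Fosb was -2.26 with both sexes and -4.07 in females only, and Atf3 was -3.91 in females only. After volume depletion in females only, Fos was -0.31, Fosb -1.54 and Fosl1 -0.17. Fosb after ischemia in Hoxb7 females was 0.22 in series A and 0.24 without the controls of series B and C. In series A, pulldown against total in Hoxb7 controls gave Jun -1.26 and Atf3 -0.21, and Atp6b1v1 against Hoxb7 gave Atf3 1.76.

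With each library left out, counts in males ran from 0 to 1 (Hoxb7 ischemia), 10 to 10, 0 to 0 (Atp6b1v1 ischemia), 7 to 9, 9 to 9 and 6 to 9 (volume depletion against ischemia), and 0 to 1 and 0 to 0 (between drivers). The Hoxb7 ischemia count was 1 without vAKI Atp6b1v1 replicate 1, control Atp6b1v1 replicate 6 or control Hoxb7 replicate 5, and the ischemia difference between drivers was 1 without vAKI Atp6b1v1 replicate 1. In females they ran from 0 to 8, 0 to 0, 0 to 0, 6 to 9, 0 to 9 and 8 to 9 in the same order. Between sexes they ran from 0 to 6, 3 to 9 and 0 to 6, and in controls from 4 to 5, 1 to 2 and 0 to 0. The share of all genes is not given beside these counts.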
